A study of Rattus norvegicus with 9 samples.

Results

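The miRNAs described here are the mature products of the rat miR-219a, miR-219b and miR-338 precursors: every listed miRNA with one of those names, whatever its arm or precursor ending, was taken. The rule used names only and found 6 of the 633 listed miRNAs, namely rno-miR-338-3p (the prefix marks rat and is left off below), miR-338-5p, miR-219a-2-3p, miR-219a-5p, miR-219a-1-3p and miR-219b. All 6 passed the filter on low counts that left 469 miRNAs for testing.

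Small RNA was sequenced from the hippocampus of Sprague-Dawley rats in 9 libraries, 3 for each of 3 groups, to ask which miRNAs differ after the NMDA receptor channel blocker MK-801, which is given to rats as a model of schizophrenia, and after the antipsychotic clozapine that followed it. MK-801 rats had 0.2 mg/kg MK-801 by intraperitoneal injection daily for 14 days and saline for 7 days. MK-801+CLO rats had the same 14 days of MK-801 and then clozapine (CLO) at 10 mg/kg for 7 days, and VEH controls had saline for 14 and 7 days. Each group held 10 rats, which the protocol puts at 5 weeks of age after 14 days of habituation, while the age field reads postnatal day 21. No group had clozapine alone, and the labels do not say whether a library is 1 rat or a pool, so every p-value speaks of library-to-library spread alone, which may be technical.

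In the brain, miR-219 and miR-338 are best known from oligodendrocytes, the cells that make myelin. Both rise steeply as oligodendrocyte progenitors leave the cell cycle, and they repress transcripts that keep progenitors immature, among them those of the growth factor receptor Pdgfra and the transcription factors Sox6 and Hes5. A miRNA precursor is a hairpin whose arms give a 5p and a 3p mature strand; usually one arm dominates, and bases 2 to 8 of each strand, the seed, set which transcripts it pairs with. The 5p strand of miR-219 has also been described as a regulator of NMDA receptor signalling through the kinase subunit Camk2g.

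The mature sequences are shown because the 6 members, despite their names, carry 6 different seeds. All 6 deposited sequences matched a RefSeq entry of the rat build GRCr8. Each is written 5′ to 3′ with the seed in capitals.
miR-338-3p: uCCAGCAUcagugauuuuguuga
miR-338-5p: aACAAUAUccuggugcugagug
miR-219a-2-3p: aGAAUUGUggcuggacaucugu
miR-219a-1-3p: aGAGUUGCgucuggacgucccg
miR-219a-5p: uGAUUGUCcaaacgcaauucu
miR-219b: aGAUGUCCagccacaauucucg
No 2 members share a seed, and no other miRNA of the table has the seed of a member. The 3p strands of the 2 miR-219a precursors differ at 7 of 22 positions counted from the 5′ end, written with the base of miR-219a-2-3p first: A4G, U8C, G10U, A17G, U20C, G21C and U22G. Of these, 2 lie in the seed. The 5p strand is identical in both hairpins, so its counts cannot be assigned to either gene.

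In GRCr8, Mir338 lies on the minus strand inside the protein-coding gene Aatk. Its 3p strand is at chr10:105796345-105796367 and its 5p strand at chr10:105796381-105796402. The hairpin is shown because several results turn on the balance of its arms, with the 5p strand as the first run of capitals and the 3p strand as the second.
Mir338 hairpin: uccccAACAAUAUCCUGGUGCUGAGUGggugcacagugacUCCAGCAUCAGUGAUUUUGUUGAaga
Mir219-2 lies on the minus strand of chromosome 3, where its 3p strand is at chr3:33516517-33516538 and its 5p strand at chr3:33516561-33516581. miR-219b is read from the opposite strand of the same site, at chr3:33516519-33516540, and pairs with miR-219a-2-3p over a run of 20 bases. That site overlaps the protein-coding gene Cercam and a long non-coding RNA gene. Mir219a1 lies on chromosome 20, where its 3p strand is at chr20:4831641-4831662 on the plus strand, and it overlaps no other annotated gene. The files were made on an earlier build, so these positions come from matching sequences and not from the files.

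Library totals ran from 10665718 to 18284905 counts, and levels are given as CPM, the count scaled by its library's total, so that 10 CPM stands for 107 to 183 counts. CPM carries no length term, and the members are of nearly equal length, but small RNA libraries take up different sequences with different efficiency, so the order of levels between members is that of the libraries. Libraries of one group differed from each other by more than sampling noise. Tests are edgeR quasi-likelihood tests over the 469 miRNAs with Benjamini-Hochberg adjustment, and a miRNA is called at an adjusted p under 0.05. The 3 comparisons share groups, so their values are not independent of each other. Of the 7 neuron markers listed for the tissue check, none was at 0 in any library, and their summed level was 22895 to 26535 CPM in the VEH libraries, 22707 to 24306 CPM in MK-801 and 22004 to 32257 CPM in MK-801+CLO.

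None of the 6 members differed between any of the groups by the adjusted test, and in each comparison the ranges of the groups overlapped for all 6. Over all tested miRNAs the test also called 0.0% in each comparison. At an unadjusted p under 0.05 edgeR had 24 miRNAs (5.12%) when MK-801 was set against VEH, 39 (8.32%) between MK-801+CLO and MK-801, and 70 (14.9%) between MK-801+CLO and VEH. Among these last was 1 member, miR-338-5p. Groups did not overlap for 13.9%, 11.5% and 17.5% of the tested miRNAs in the same order, against 0 of 6 members. DESeq2 called 1, 2 and 11 miRNAs and limma voom 0 in each; no member was among those called by either tool.

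**Figure D1:**
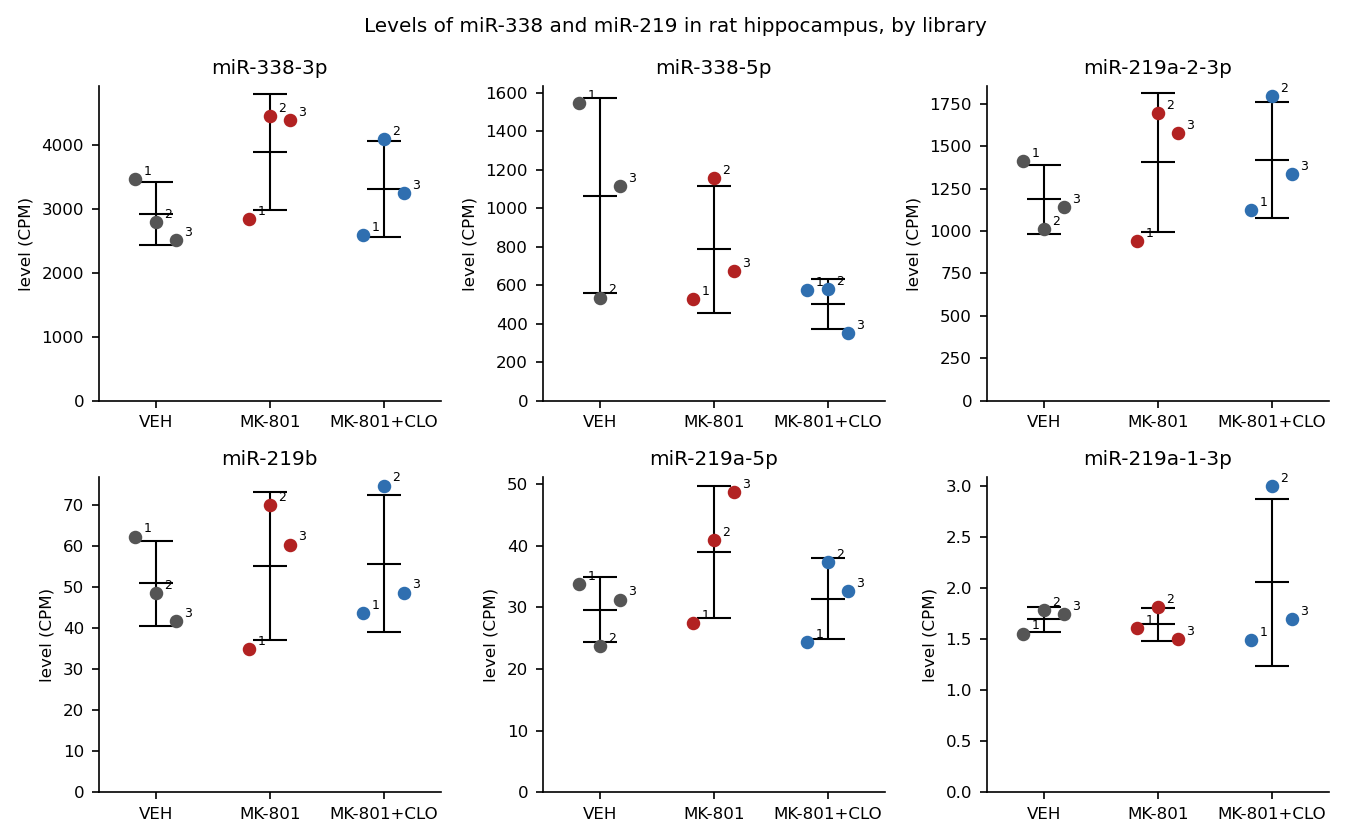
Level in CPM (linear axes from 0) of each member in each library, with points numbered by replicate and bars for the mean and SD of the 3 libraries of a group. In all 6 panels the groups overlap, and the 3 MK-801+CLO libraries of miR-338-5p, at 354 to 581 CPM, sit low in their panel.

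miR-338-3p, the arm of miR-338 known for promoting oligodendrocyte differentiation, was the most abundant member and ranked between 30th and 47th among all miRNAs of a library. It stood at 3467, 2798 and 2515 CPM in VEH replicates 1 to 3, at 2846, 4450 and 4383 CPM in MK-801, and at 2592, 4094 and 3242 CPM in MK-801+CLO. MK-801 replicates 2 and 3 were above all other libraries, but MK-801 replicate 1 lay inside the VEH range, so the groups overlapped. The group means were 2927 ± 489 CPM in the VEH libraries, 3893 ± 907 CPM in MK-801 and 3309 ± 753 CPM in MK-801+CLO (SD, n = 3 each). The log2 fold change of MK-801 over VEH was 0.43 ± 0.21 (SE; 95% interval -0.05 to 0.91; edgeR adjusted p = 0.814). The estimate for MK-801+CLO over MK-801 was -0.19 ± 0.21 (edgeR adjusted p = 0.797), and that over VEH was 0.24 ± 0.21 (edgeR adjusted p = 0.615). These intervals leave room for changes of either sign.

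miR-219a-2-3p, the dominant strand of the chromosome 3 precursor, ranked between 52nd and 70th in a library. It was found at 1409, 1013 and 1139 CPM in the VEH libraries, 938, 1694 and 1577 CPM in MK-801, and 1122, 1793 and 1336 CPM in MK-801+CLO. The highest library was MK-801+CLO replicate 2, and the MK-801 group held both the lowest library and the next 2 from the top. Its log2 fold changes were 0.26 ± 0.24 for MK-801 over VEH (95% interval -0.27 to 0.79), 0.06 ± 0.24 for MK-801+CLO over MK-801 and 0.32 ± 0.24 for MK-801+CLO over VEH (edgeR adjusted p = 0.841, 0.948 and 0.545). The second of these turned to -0.03 with upper-quartile scaling, so it has no settled direction.

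miR-219a-5p, the strand linked to NMDA receptor signalling, was far scarcer than its partner strand. It measured 33.9, 23.8 and 31.3 CPM in the VEH libraries, 27.4, 40.9 and 48.7 CPM in MK-801, and 24.3, 37.3 and 32.6 CPM in MK-801+CLO. MK-801 replicates 2 and 3 were again the highest libraries, and MK-801 replicate 1 lay within the VEH range. The estimated log2 fold change of MK-801 over VEH was 0.42 ± 0.24 (95% interval -0.12 to 0.95; edgeR adjusted p = 0.814), and the estimates for MK-801+CLO were -0.27 ± 0.24 over MK-801 and 0.14 ± 0.24 over VEH (edgeR adjusted p = 0.732 and 0.819).

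miR-219b, the antisense product of the chromosome 3 site, was at 62.3, 48.6 and 41.8 CPM in the VEH libraries, 35.0, 69.9 and 60.4 CPM in MK-801, and 43.6, 74.7 and 48.7 CPM in MK-801+CLO. The second library of both treated groups was high and the first was low, as for miR-219a-2-3p. None of its log2 fold changes exceeded its SE (0.13 ± 0.28, 0.06 ± 0.28 and 0.19 ± 0.28 for MK-801 over VEH, MK-801+CLO over MK-801 and MK-801+CLO over VEH; edgeR adjusted p = 0.934, 0.957 and 0.799).

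miR-219a-1-3p, the 3p strand of the chromosome 20 precursor, was rare, with 19 to 32 counts per library. It stood at 1.56, 1.78 and 1.75 CPM in the VEH libraries, 1.61, 1.82 and 1.51 CPM in MK-801, and 1.49, 3.00 and 1.70 CPM in MK-801+CLO. Only MK-801+CLO replicate 2 stood clear of the rest, with a 95% Wilson interval of 2.13 to 4.23 CPM that covers counting error only. Its log2 fold changes were -0.02 ± 0.29, 0.35 ± 0.29 and 0.33 ± 0.29 in the same order of comparisons (edgeR adjusted p = 0.980, 0.726 and 0.615). Without that library the last 2 became -0.01 and -0.05. miR-219a-2-3p, its counterpart from the other precursor, was 568 to 1046 times as abundant.

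miR-338-5p, the other arm of miR-338, had its high libraries elsewhere. It measured 1548, 536 and 1116 CPM in the VEH libraries, 531, 1158 and 672 CPM in MK-801, and 576, 581 and 354 CPM in MK-801+CLO. VEH replicates 1 and 3 and MK-801 replicate 2 were the high libraries, and all 3 MK-801+CLO libraries were among the lower ones, while VEH replicate 2 sat inside the MK-801+CLO range. The group means were 1067 ± 508 CPM in the VEH libraries, 787 ± 329 CPM in MK-801 and 504 ± 130 CPM in MK-801+CLO (SD, n = 3 each).

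The log2 fold change of miR-338-5p for MK-801+CLO over VEH was -1.03 ± 0.38 (95% interval -1.87 to -0.19), a level 0.49 times that of VEH, and it did not pass the test (edgeR adjusted p = 0.254, unadjusted p = 0.0211). Of the other estimates, that of MK-801 over VEH was -0.44 ± 0.37 (edgeR adjusted p = 0.841) and that of MK-801+CLO over MK-801 was -0.59 ± 0.37 (edgeR adjusted p = 0.680). Leaving out VEH replicate 1 brought the value against VEH to -0.66 (edgeR adjusted p = 0.451), and leaving out VEH replicate 2 brought it to -1.35 (edgeR adjusted p = 0.10). DESeq2 gave -1.01 with an adjusted p of 0.0655.

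**Figure D2:**
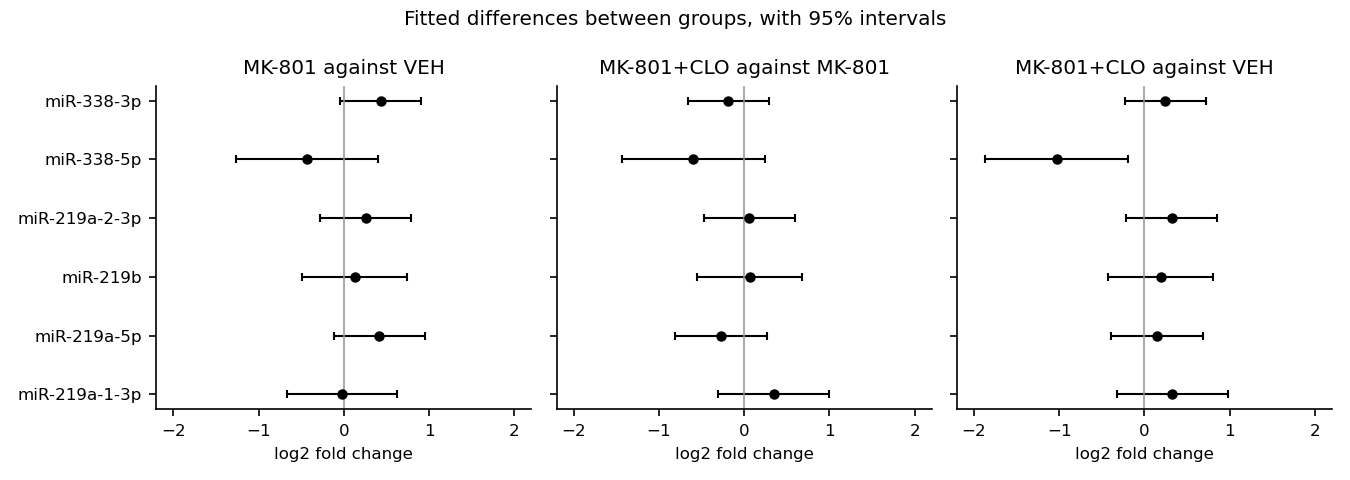
Fitted log2 fold change of each member in the 3 comparisons (points, edgeR) with 95% intervals (bars); the grey line marks no difference. Every interval spans 0 but that of miR-338-5p for MK-801+CLO against VEH, which runs from -1.87 to -0.19 and did not pass the adjusted test.

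The 2 arms of miR-338 come from one hairpin and are read in the same library, so their ratio needs no scaling between libraries. There were 2.24, 5.22 and 2.25 counts of miR-338-3p per count of miR-338-5p in VEH, 5.36, 3.84 and 6.52 in MK-801, and 4.50, 7.05 and 9.16 in MK-801+CLO. VEH replicates 1 and 3 had the lowest ratios, and VEH replicate 2 lay among the treated libraries. Put as a share, miR-338-5p made up 30.9%, 16.1% and 30.7% of the miR-338 counts in VEH, 15.7%, 20.7% and 13.3% in MK-801, and 18.2%, 12.4% and 9.84% in MK-801+CLO. Counting error is small beside these gaps: the 95% Wilson interval of the last share, for MK-801+CLO replicate 3, was 9.58% to 10.1%.

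The mean log2 ratio of 3p to 5p was higher by 0.78 in MK-801 than in VEH (exact two-sided permutation p = 0.2, adjusted over the 3 comparisons 0.3). MK-801+CLO exceeded MK-801 by 0.37 (exact permutation p = 0.4, adjusted 0.4) and VEH by 1.15, which is 2.23-fold (exact permutation p = 0.2, adjusted 0.3). An exact permutation test of 3 libraries against 3 cannot go below p = 0.1, and the groups overlapped in each comparison. Single libraries set the overlap. Without VEH replicate 2 the differences from VEH were 1.19 for MK-801 and 1.56 for MK-801+CLO, and neither group overlapped VEH any longer (exact permutation p = 0.1 for both, the smallest that 2 against 3 allows). Nor did MK-801 overlap VEH without MK-801 replicate 2 (0.99, exact permutation p = 0.2). Without MK-801+CLO replicate 1 that group overlapped neither VEH (1.43, exact permutation p = 0.2) nor MK-801 (0.65, exact permutation p = 0.2). Other omissions left the groups overlapping. Of these, dropping MK-801 replicate 1 raised the excess of MK-801+CLO over MK-801 to 0.40 (exact permutation p = 0.4). Dropping MK-801 replicate 3 raised it to 0.55 (exact permutation p = 0.3). The rest made the differences smaller. Leaving out VEH replicate 1, or VEH replicate 3, gave 0.58 for MK-801 and 0.95 for MK-801+CLO over VEH (exact permutation p = 0.4 and 0.3 each time). Leaving out MK-801+CLO replicate 3 brought its difference from MK-801 to 0.14 (exact permutation p = 0.8).

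The arm ratio of miR-338 was also set beside that of other hairpins, a comparison added after its values had been seen. Over the 83 precursors with both arms at a mean of 10 CPM or more, the SD of the log2 ratio across the 9 libraries was 0.70 for miR-338, the highest, with a median of 0.18 over all and 0.45 for the next, miR-374. Within groups the SD was 0.55 for miR-338, again the highest, beside a median of 0.15, so spread was also present among libraries treated alike. Its difference between MK-801+CLO and VEH was also the first of 83 in size. These ranks are descriptions, and no test was made of them.

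**Figure D3:**
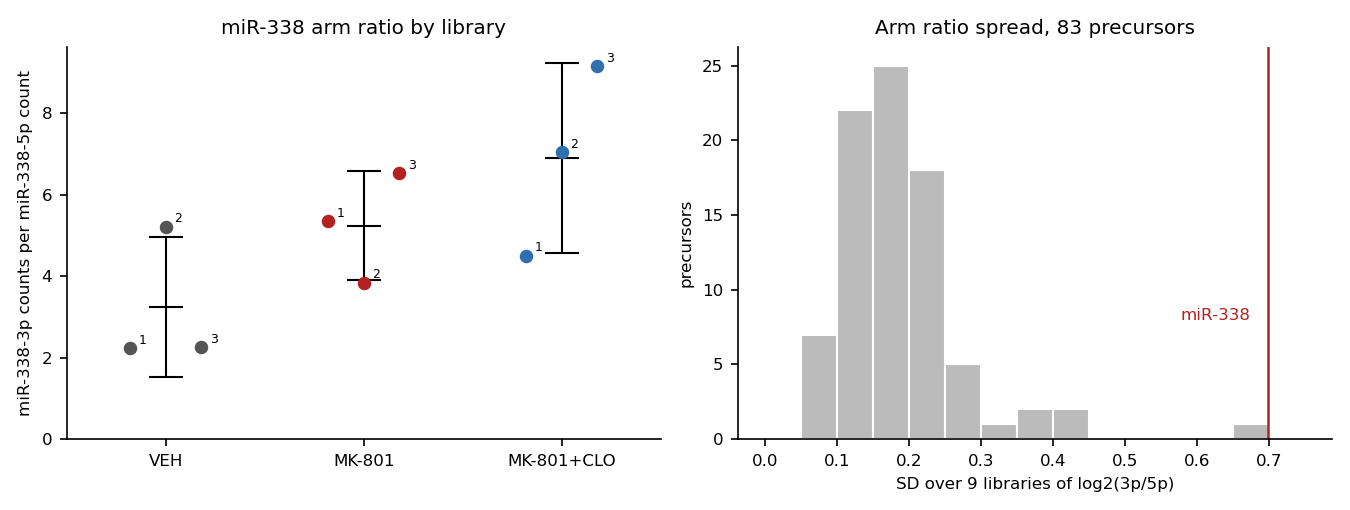
Left, counts of miR-338-3p per count of miR-338-5p in each library (points numbered by replicate, bars for mean and SD of 3 libraries). Right, the number of precursors (of 83) at each SD over the 9 libraries of log2 3p to 5p counts, with miR-338 marked by a line at 0.70.

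Markers of the choroid plexus and ependyma, which border the hippocampus, shared some of their high and low libraries with miR-338-5p. All 7 listed markers were present in every library, and their summed level was 5800, 3984 and 12394 CPM in the VEH libraries, 3647, 4495 and 3743 CPM in MK-801, and 2727, 3855 and 2562 CPM in MK-801+CLO. Among VEH, replicates 1 and 3 had the most of these markers, the most miR-338-5p and the lowest arm ratios, and MK-801+CLO replicate 3 had the least of both. For MK-801+CLO against VEH, 6 of the 7 markers were lower with a list median log2 fold change of -1.16, beside 0.003 for all miRNAs. At an unadjusted edgeR p under 0.05, 5 were lower and 1 (miR-211-5p) higher, beside 14.9% of all tested miRNAs in either direction. Of the 7, 0 were called by edgeR or limma voom, and DESeq2 called 2, miR-34b-5p and miR-211-5p. For MK-801 against VEH all 7 were lower, with a median of -0.40. Without VEH replicate 3, where the markers peaked (a choice made after seeing the data), the median for MK-801+CLO against VEH was -0.78. In that comparison 6 of the 7 markers, counting both directions, still had an unadjusted edgeR p under 0.05. The median for MK-801 against VEH was -0.20, and there the markers at an unadjusted p under 0.05 went from 3 to 0. Over all tested miRNAs that count went from 24 (5.12%) to 15. miR-338-5p for MK-801+CLO against VEH then stood at a log2 fold change of -0.999 ± 0.43 (edgeR adjusted p = 0.572). The part of these markers in the miR-338-5p values was not tested. In whole tissue, fewer cells of a type and less RNA per cell cannot be told apart.

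miR-338-3p, miR-219a-2-3p, miR-219a-5p and miR-219b shared many of their high and low libraries. miR-219a-1-3p, under 10 CPM, was left out of the correlations. Over the 9 libraries, the Pearson r of log2(CPM + 1) between miR-219a-2-3p and its antisense miR-219b was 0.93 (exact permutation p = 0.000598, adjusted over the 10 pairs of the 5 members above 10 CPM 0.00598) and Spearman's rank correlation was 0.917 (exact permutation p = 0.00131, adjusted 0.0131). Without the 2 libraries farthest from the median r was 0.86. Their ratio held between 20.8 and 27.4 in all 9 libraries, with a coefficient of variation of 9.02%. The sources used here do not say whether counting used strand. Without strand, reads of these antisense partners could not be told apart.

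miR-219a-2-3p and miR-338-3p, which come from different chromosomes, also varied together, with r = 0.89 (exact permutation p = 0.00282, adjusted 0.00942) and Spearman's coefficient = 0.783 (exact permutation p = 0.0172, adjusted 0.0344). Without the 2 farthest libraries r was 0.94, and on deviations from the group means it was 0.95. Of the 6 pairs among miR-338-3p, miR-219a-2-3p, miR-219a-5p and miR-219b, 5 had an adjusted permutation p of r under 0.05; the exception was miR-219a-5p with miR-219b at r = 0.69 (exact permutation p = 0.0408, adjusted 0.0680). The ratio of miR-338-3p to miR-219a-2-3p was 2.48 ± 0.277 in VEH, 2.81 ± 0.205 in MK-801 and 2.34 ± 0.0757 in MK-801+CLO (SD, n = 3 each).

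For miR-338-5p no correlation with those 4 passed the test over the 9 libraries. Its r with its own partner arm miR-338-3p was 0.18 (exact permutation p = 0.627, adjusted 0.627; Spearman's coefficient = 0.35, exact permutation p = 0.359, adjusted 0.359), and its r with the miR-219 strands was 0.27 to 0.34 (adjusted exact permutation p between 0.530 and 0.531). Spearman's rank correlation with the miR-219 strands was higher, at 0.467 to 0.55 (adjusted exact permutation p between 0.184 and 0.236). On deviations from the group means r was 0.63 with miR-219a-2-3p, 0.49 with miR-219a-5p, 0.54 with miR-219b and 0.44 with miR-338-3p. Without the 2 libraries farthest from the median, r between the arms was -0.02.

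**Figure D4:**
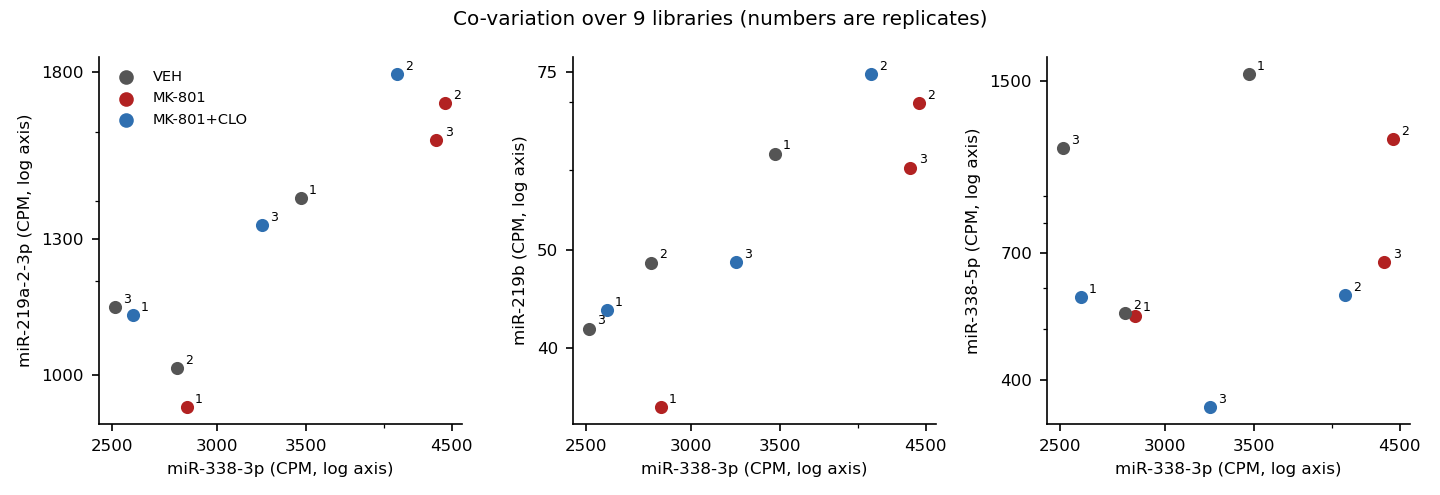
Level of miR-219a-2-3p, miR-219b and miR-338-5p against that of miR-338-3p in the 9 libraries (CPM, log axes; colours are groups, numbers are replicates). The points follow a line in the first 2 panels (r = 0.89 and 0.86) and scatter in the third (r = 0.18).

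The miRNAs most like the 2 most abundant members were ranked by r over the 9 libraries among 332 others of at least 10 CPM, as a description. miR-338-3p was most like miR-21-5p (r = 0.96), then miR-219a-2-3p (0.89), miR-3065-3p (0.89), miR-219a-5p (0.88) and miR-21-3p (0.88), with its own partner arm at rank 98. miR-219a-2-3p was most like miR-181b-5p (r = 0.995), then miR-3065-3p (0.95), miR-219b (0.93), miR-210-3p (0.91) and miR-26b-3p (0.90). Near the top for both was miR-3065-3p, which is read from the strand opposite Mir338.

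miR-3065-3p pairs with miR-338-5p over 19 bases, yet its level went with the other arm. It stood at 47.9, 38.0 and 43.4 CPM in the VEH libraries, 34.0, 61.5 and 60.0 CPM in MK-801, and 32.8, 70.6 and 47.4 CPM in MK-801+CLO, again with the second library of both treated groups high. Its r was 0.89 with miR-338-3p (Spearman's coefficient = 0.833; exact permutation p = 0.00277 and 0.00827, adjusted over 2 pairs 0.00554 and 0.0165) and 0.23 with miR-338-5p (Spearman's coefficient = 0.5; exact permutation p = 0.537 and 0.178). The difference between these correlations was not tested.

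The list of 10 miRNAs that promote oligodendrocyte differentiation or are raised in mature oligodendrocytes holds the 6 members and 4 others, all tested. In no comparison did edgeR, DESeq2 or limma voom call any of them. For MK-801 against VEH, 6 were higher and 4 lower, with a median log2 fold change of 0.15 beside -0.02 for all miRNAs. The only one at an unadjusted p under 0.05 was miR-138-5p, which promotes early oligodendrocyte differentiation: it was at 32168 ± 7398 CPM in MK-801 and 21944 ± 638 CPM in VEH (SD, n = 3 each), with no overlap, a log2 fold change of 0.58 ± 0.18 and an edgeR adjusted p of 0.588. Its level in MK-801+CLO was 22741 ± 2612 CPM, a log2 fold change of -0.47 ± 0.18 from MK-801 (edgeR adjusted p = 0.526). Between MK-801 and VEH, groups did not overlap for 13.9% of all tested miRNAs and for 2 of these 10. An unadjusted edgeR p under 0.05 was found there for 5.12% of all tested miRNAs.

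For MK-801+CLO against MK-801, 5 of the 10 were higher and 5 lower (median -0.04), and with upper-quartile scaling, which moved the median of all miRNAs to -0.12, 2 were higher. For MK-801+CLO against VEH, 7 were higher and 3 lower (median 0.13), and without MK-801+CLO replicate 2 only 3 were higher. miR-23a-3p, which supports myelin by repressing the nuclear lamina protein lamin B1, was at 324 ± 17.0 CPM in MK-801 and 370 ± 28.9 CPM in VEH without overlap (edgeR adjusted p = 0.814). Such a lack of overlap was seen for 13.9% of all tested miRNAs there. The list showed no shared direction that held through these alternatives.

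Of the 12 miRNAs listed for progenitor proliferation or as lower in maturing oligodendrocytes, 11 were tested, and edgeR, DESeq2 and limma voom called 0 of them in each comparison. At an unadjusted p under 0.05 edgeR had 0, 2 and 3 of the 11, beside 5.12%, 8.32% and 14.9% of all tested miRNAs. Medians lay near those of all miRNAs, at -0.01, -0.01 and 0.05 in the order used above. Under upper-quartile scaling 8 in place of 5 were higher in MK-801 than in VEH. That scaling moved the median of all miRNAs for MK-801 against VEH from -0.02 to 0.07. miR-7a-5p had the widest gap: it was at 120 ± 26.7 CPM in MK-801+CLO and 209 ± 52.6 CPM in VEH without overlap, a log2 fold change of -0.74 ± 0.24 (edgeR adjusted p = 0.205, unadjusted p = 0.0113). In that comparison 17.5% of all tested miRNAs and 2 of these 11 had groups without overlap. miR-92a-3p, of the proliferation-linked miR-17-92 cluster, and miR-212-3p were higher there at an unadjusted p under 0.05, by 0.44 and 0.30 on the log2 scale (edgeR adjusted p = 0.288 and 0.256).

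The list linked to NMDA receptor signalling, which holds miR-219a-5p, had 10 tested miRNAs, of which edgeR, DESeq2 and limma voom called 0 in each comparison. For MK-801 against VEH 4 were higher and 6 lower (median -0.04), or 7 higher with upper-quartile scaling. For both comparisons of MK-801+CLO 6 were higher and 4 lower, with a median of 0.09, but with upper-quartile scaling that against MK-801 had 4 higher and a median of -0.02. miR-132-3p and miR-212-3p, products of one activity-dependent transcript, were the 2 at an unadjusted p under 0.05 for MK-801+CLO against VEH, at 0.42 and 0.30 on the log2 scale (edgeR adjusted p = 0.256 for both). Over all tested miRNAs 14.9% were at an unadjusted edgeR p under 0.05 there. Without VEH replicate 3 (a choice made after seeing the data), 0 of the 10 were. Other members were lower without overlap. miR-191a-5p averaged 34341 CPM in VEH, 31396 CPM in MK-801 and 29998 CPM in MK-801+CLO (edgeR adjusted p against VEH = 0.824 and 0.489). miR-15a-5p averaged 0.36 ± 0.27 CPM in MK-801 and 0.82 ± 0.22 CPM in VEH (SD, n = 3 each, edgeR adjusted p = 0.814). Its MK-801 mean is close to the 0.164 to 0.281 CPM that 3 counts stand for, so few reads set this gap. Groups did not overlap for 13.9% (MK-801) and 17.5% (MK-801+CLO) of all tested miRNAs against VEH.

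Markers of the other cell types a hippocampal sample can hold were also measured, and edgeR called 0 of them in any comparison. The 6 microglia and leukocyte markers summed to 801 to 957 CPM in the VEH libraries, 804 to 837 CPM in MK-801 and 912 to 1131 CPM in MK-801+CLO. The 4 vascular markers summed to 21837 to 25137 CPM in the VEH libraries, 22711 to 24163 CPM in MK-801 and 25681 to 30246 CPM in MK-801+CLO, where the range cleared both other groups. Most of that sum was miR-143-3p, with a mean of 21311 CPM in MK-801+CLO and 17775 CPM in VEH. In MK-801+CLO 3 of the 4 were higher than in VEH at an unadjusted edgeR p under 0.05, as were or were lower 14.9% of all tested miRNAs. DESeq2 called 2 of them, miR-126a-3p and miR-143-3p. The remaining marker, miR-145-5p, was lower than in VEH (log2 fold change -0.21 ± 0.25, edgeR adjusted p = 0.746). The 4 red blood cell markers summed to 3071 to 3563 CPM, 2710 to 3091 CPM and 2973 to 3268 CPM in the same order. Against VEH in MK-801+CLO, 1 of the 6 microglia, 1 of the 7 neuron and 0 of the 4 red blood cell markers had an unadjusted p under 0.05. Their part in the members' values was not tested.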

How the data were processed

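The authors deposited 1 table of whole-number counts for each miRNA, beside a column per library that the header calls TPM. These deposited columns differ from count over library total, as CPM, by at most 0.000473%, so they were read as CPM. The tools named, per the submitters' processing notes, are cutadapt 1.14, Bowtie and DESeq, on build Rnor_6.0, with no role stated. The sources used here do not give the treatment of strand or of reads that match several miRNAs. The table had 21 blank lines, 1 name split over lines, which was rejoined, and 3 miRNAs at 0 throughout.

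Counts were tested with edgeR 4.0.16 in R 4.3.3 (filterByExpr, TMM, glmQLFit, glmQLFTest) with 1 mean per group over all 9 libraries. The filter kept 469 miRNAs with 99.997% of the counts. The common BCV was 17.2%. SE was taken as the size of the log2 fold change over the root of F (median 0.159 to 0.160). The fit was checked on simulated counts. DESeq2 1.42.0 and limma 3.58.1 were alternatives, with other scalings, filters, pseudocounts, a replicate block and each library left out. SciPy 1.17.1 gave Wilson intervals and exact tests, with 0.5 added to each arm's count in the ratio. A count of 0 would allow up to 0.164 to 0.281 CPM (3 counts). Intervals and floors cover counting error only.

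Groups and replicate numbers come from the titles. Named miRNAs were the members, any on the 8 lists, the 5 most like each of the 2 most abundant members, and any sharing a seed. The members and lists were chosen with earlier results of these data known.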

Additional observations from a re-analysis of the deposited data

How the results depend on the processing

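Of 357 values of the 6 members under the alternatives, 15 changed sign, in 8 of the 18 member comparisons, and 0 passed the adjusted threshold. miR-219a-1-3p for MK-801 over VEH became 0.068, miR-219a-2-3p for MK-801+CLO over MK-801 became -0.029 and miR-219b there became -0.025 with upper-quartile scaling. With 1 library left out the log2 fold changes ran from -0.094 to 0.018 for miR-219a-1-3p and -0.033 to 0.36 for miR-219b (MK-801 over VEH). For MK-801+CLO over MK-801 they ran from -0.014 to 0.56 for miR-219a-1-3p, -0.15 to 0.22 for miR-219a-2-3p and -0.22 to 0.23 for miR-219b. For MK-801+CLO over VEH they ran from -0.054 to 0.54 for miR-219a-1-3p, -0.023 to 0.32 for miR-219a-5p and -0.11 to 0.37 for miR-219b; MK-801+CLO replicate 2 was the library whose omission changed these signs. The 2 miR-338 arms kept their signs but not their sizes with 1 library left out. miR-338-3p ran from 0.30 to 0.60 for MK-801 over VEH, -0.38 to -0.021 for MK-801+CLO over MK-801 (nearest 0 without MK-801+CLO replicate 1) and 0.035 to 0.41 for MK-801+CLO over VEH (nearest 0 without MK-801+CLO replicate 2). miR-338-5p ran from -0.77 to -0.077 (nearest 0 without VEH replicate 1), -0.79 to -0.26 (nearest 0 without MK-801 replicate 2) and -1.35 to -0.66 (nearest 0 without VEH replicate 1). The differences in log2 arm ratio ran from 0.58 to 1.19, 0.14 to 0.65 and 0.92 to 1.56.

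Over all miRNAs DESeq2 called 1, 2 and 11 in place of 0, and leaving out 1 library gave 0 to 1, 0 to 2 and 0 to 7, the highest without MK-801 replicate 2, MK-801+CLO replicate 2 and MK-801+CLO replicate 2. The cause was not tested. Counts at an unadjusted p under 0.05 fell by over 1.5 times without VEH replicate 3 (15 for MK-801 over VEH, 38 for MK-801+CLO over VEH), MK-801 replicate 1 (23 for MK-801+CLO over MK-801) and MK-801+CLO replicate 3 (18 and 34), and reached 37 for MK-801 over VEH without MK-801 replicate 2. On deviations from the group means, the correlation of miR-219a-5p with miR-338-3p was 0.85 with an adjusted permutation p of 0.0833. With libraries left out, an alternative chosen after seeing the data, r between the miR-338 arms ran from -0.014 to 0.42.

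With the replicate number as a block edgeR called 0 miRNAs in each comparison, and the arm ratio differences stayed at 0.78, 0.37 and 1.15 (exact sign-flip permutation p = 0.5, 0.5 and 0.25). Deviations of same-numbered libraries correlated at -0.58 to 0.31, and those of differently numbered libraries of different groups at -0.52 to 0.53. These few values, tied to each other within a group, cannot show whether the numbers mark a pairing. The titles give only a number. miR-219a-1-3p has no value at a filter of 10 CPM, and at 19 to 32 counts per library its depth limits what can be seen.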

Other observations

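The likeness ranking of miR-338-5p, run after its values were seen, was led by miR-34b-5p (r = 0.88), miR-34c-3p (0.88), miR-320-3p (0.88), miR-375-3p (0.87) and miR-34b-3p (0.86). miR-34b and miR-34c are known for multiciliated cells such as ependyma, and miR-34b-5p and miR-34c-5p are on the marker list used above. Of that list, miR-34c-5p ranked 6 and miR-448-3p ranked 9. The others on it, miR-204-5p, miR-211-5p, miR-1298 and miR-449a-5p, were not among the first 10. miR-338-3p stood at rank 164 of 332 in that ranking. At the other end, the miRNA least like miR-338-3p was miR-378a-5p (r = -0.77), and the one least like miR-219a-2-3p was miR-137-3p (r = -0.88), a neuronal miRNA. These are correlations over 9 libraries picked from many, they share each library's total, and none was tested.

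Summed over the 6 members, the level was 6522, 4421 and 4845 CPM in the VEH libraries, 4379, 7414 and 6743 CPM in MK-801, and 4359, 6583 and 5015 CPM in MK-801+CLO. MK-801 held both the highest library and one of the 2 lowest.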
